A study of Mus musculus with 4 samples.

Results

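The genes described here encode contractile proteins, calcium-handling proteins and a hormone of atrial heart muscle. They are a list of 10 genes, Myl7, Myl4, Myh6, Tnni3, Tnnt2, Actc1, Sln, Pln, Ryr2 and Nppa, of the 32285 genes in each count table, chosen by name as genes of the atrial sarcomere and its calcium handling. Lung cryosections of 10 µm from 4 C57BL/6J mice were profiled on Visium slides, whose barcoded spots capture the mRNA of the tissue lying on them and label each captured molecule once with a unique molecular identifier (UMI). Vaped (V) mice, 1 male and 1 female, had breathed aerosol of a flavoured e-cigarette juice from JUUL pens in whole-body chambers for 9 weeks, 5 days a week and 4 h a day, starting at an age of 8 weeks. Non-Vaped (NV) mice, 1 male and 1 female, were not exposed. The labels give the tissue as upper pulmonary branches, and each mouse gave 1 section, so the tissue that a section happened to hold is part of the spread between mice.

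In the sarcomere, myosin heavy chains pull on actin filaments, the light chains adjust that pull, and the troponins on the thin filament let calcium switch it on. Calcium leaves the sarcoplasmic reticulum through the ryanodine receptor Ryr2 and is pumped back by the ATPase encoded by Atp2a2, which the small proteins phospholamban (Pln) and sarcolipin (Sln) hold in check. In adult mice, atrial muscle uses other light chains than ventricular muscle and also makes natriuretic peptide A (Nppa), and heart muscle of this kind continues from the left atrium along the pulmonary veins into the lung.

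The sections held 473 to 2053 spots and 6957392 to 34308556 UMIs, with medians of 6259 to 11355 UMIs per spot. Any pair of sections shared 277 to 1167 spot barcodes (the capture areas of these slides carry the same barcodes), and sections were analysed as separate tables. The V male stood apart from the other mice in that it held no muscle-rich spot. Muscle-rich spots were those in which 12 other heart muscle genes together (Actn2, Ttn, Mybpc3, Tnnc1, Csrp3, Myoz2, Tcap, Ldb3, Casq2, Hrc, Mb and Smpx) reached 20 UMIs per 10000 of the spot. There were 645 of them (NV male), 184 (NV female), 0 (V male) and 415 (V female), and the highest value of any V male spot was 5.60 per 10000. Parenchyma spots were not muscle-rich and reached 50% of the overall level of 6 alveolar and capillary genes (Sftpc, Sftpb, Hopx, Cldn18, Tmem100 and Calcrl), which gave 191, 239, 1564 and 1452 spots in the NV male, NV female, V male and V female. Results that rest on the V male are given below with and without it.

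The annotation places the 10 genes on 9 chromosomes, with Myl7 and Myl4 both on chromosome 11. In GRCm38, Myl7 spans chr11:5896637-5898782 on the minus strand, Myl4 chr11:104550663-104595753 on the plus strand and Nppa chr4:148000722-148002079 on the plus strand. RefSeq (GRCm38.p6) gave a start-site window for 9 of the 10 genes, all but Sln. The 250 bases before the start of Myl7 (chr11:5898783-5899032, minus strand) and of Nppa (chr4:148000472-148000721, plus strand) are shown 5′ to 3′, because Myl7 was the highest of the 10 genes and Nppa was part of the least correlated pair in each section with muscle, as described further on. Capitals mark matches, on either strand, to any of 6 searched motifs: the GATA letters AGATAA, the NKX2-5 letters TNAAGTG, the TEAD letters CATTCC, the TATA letters TATAAA, the MEF2 box and the CArG box.
Myl7: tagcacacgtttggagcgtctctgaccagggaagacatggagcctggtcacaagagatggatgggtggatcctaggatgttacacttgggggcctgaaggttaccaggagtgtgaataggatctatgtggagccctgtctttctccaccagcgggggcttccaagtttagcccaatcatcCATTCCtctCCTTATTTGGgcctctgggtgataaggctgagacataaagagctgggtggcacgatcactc
Nppa: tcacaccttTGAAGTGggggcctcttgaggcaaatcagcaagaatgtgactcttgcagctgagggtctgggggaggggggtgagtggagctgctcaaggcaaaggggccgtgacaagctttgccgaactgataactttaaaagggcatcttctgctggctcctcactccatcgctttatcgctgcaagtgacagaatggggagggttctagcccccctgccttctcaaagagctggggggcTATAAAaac
In the Myl7 window, CATTCC stood 70 to 65 bases and a CArG box 61 to 52 bases before the start. The Nppa window held TNAAGTG at 241 to 235 bases and TATAAA at 9 to 4 bases before the start. A CArG box was in the windows of 2 of the 9 genes (Myl7 and Actc1) and in 1.47% of 32851 windows of all genes, while TATAAA was in 2 of 9 (Nppa and Pln) and 12.4%. Of the other motifs, CATTCC was found in 3 of 9 (Myl7, Myh6 and Tnnt2) against 12.6%, AGATAA in 2 of 9 (Pln and Tnnt2) against 9.99%, TNAAGTG in 1 of 9 against 10.1%, and the MEF2 box in 0 of 9 against 1.69%. The counts are of genes with a match in any of their windows (Tnnt2 had a further window), whereas the percentages are of single windows. A match is a run of letters in a window and does not show that a factor binds.

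The first question was how much of each gene a section held. Levels are given as CPM, the UMIs of a gene scaled to 1000000 UMIs of the section or of the spots named. Each UMI is 1 captured transcript end, so levels of different genes can be compared without a correction for length. Together the 10 genes reached 16374 CPM (NV male), 17187 (NV female) and 9350 (V female), but 24.2 (V male), where 287 of 11880468 UMIs came from them. Fewer muscle cells in a section and less RNA per cell cannot be told apart in such sums.

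The light chains led. Myl7, the atrial regulatory light chain, was the highest of the 10 in each of the 3 sections with muscle, at 3596 (NV male), 3875 (NV female) and 1951 (V female), against 2.02 CPM (24 UMIs) in the V male. Myl4, the atrial essential light chain, reached 2688, 2693 and 1430, against 9.34 (111 UMIs) in the V male. The V male value of Myl4 was thus above its Myl7 value, whereas in the other sections it was below.

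Myh6, the alpha heavy chain that is the main cardiac myosin of adult mice, reached 2266 CPM (NV male), 2791 (NV female) and 1569 (V female), but 0.337 (4 UMIs) in the V male. On the thin filament, Actc1, the cardiac alpha-actin, stood at 1762, 1609, 3.37 and 1054 CPM in the order NV male, NV female, V male and V female. Tnni3, the inhibitory cardiac troponin, stood at 1327, 1544, 0.589 and 845 in the same order. Tnnt2, which anchors the troponin complex to tropomyosin, stood at 1150, 1167, 0.421 and 664. All 4 genes were lower in both V sections than in either NV section, as were 14.4% of all genes tested.

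Among the calcium-handling genes, Sln was the most abundant, with 1946 CPM (NV male), 1922 (NV female), 0.505 (V male) and 971 (V female). Pln, the other inhibitor of the same pump, had 394, 348, 0.168 and 211. Ryr2 was the lowest of the 10 in the sections with muscle, with 176, 156, 1.52 and 107. Nppa, the secreted hormone that lowers blood pressure and promotes sodium loss, had 1068, 1083, 5.89 and 546. By their NV mean ± SD (n = 2) the genes ran in the order Myl7 (3735 ± 197), Myl4 (2691 ± 3.07), Myh6 (2528 ± 371), Sln (1934 ± 16.7), Actc1 (1685 ± 108), Tnni3 (1436 ± 153), Tnnt2 (1158 ± 11.8), Nppa (1076 ± 11.1), Pln (371 ± 32.5) and Ryr2 (166 ± 14.0). Of the neighbours in this order, Myl4 and Myh6 did not differ beyond their spread and stood the other way round in both females, and Actc1 and Tnni3 were nearly level in the NV female. Sln and Actc1 also stood the other way round in the V female.

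**Figure D1:**
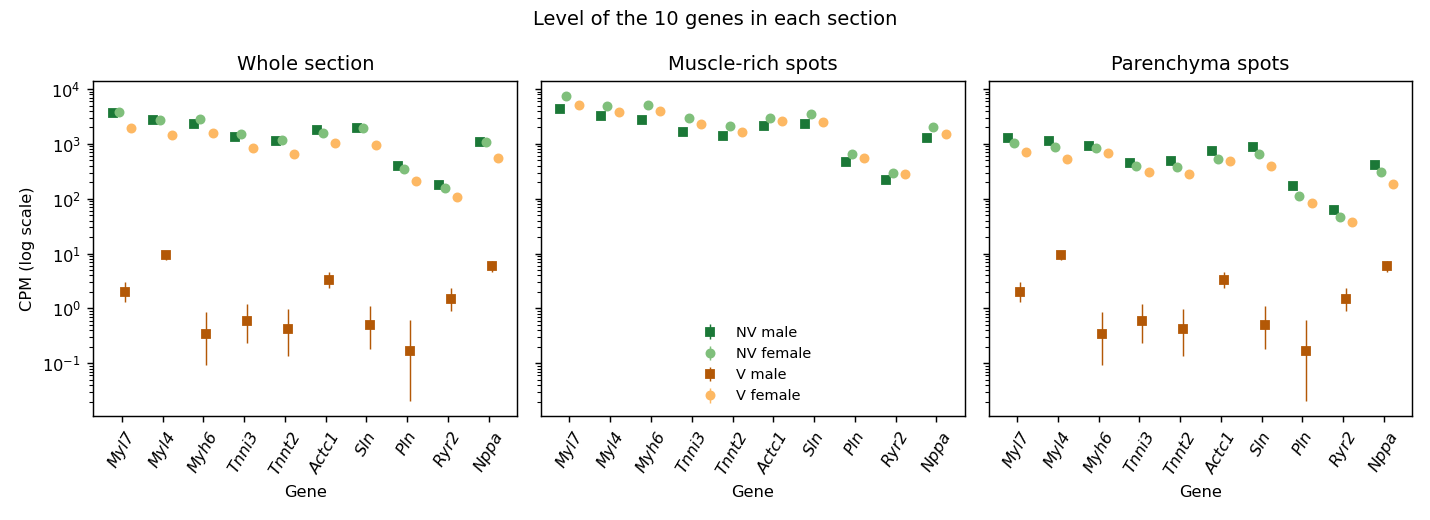
CPM (log scale) of each of the 10 genes in whole sections, muscle-rich spots and parenchyma spots. Squares are males and circles females, NV in green and V in orange, and bars are exact 95% Poisson intervals that cover counting error only. The V male lies at 0.168 to 9.34 CPM in whole sections, below every other section for every gene, and has no muscle-rich spots.

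The second question was which heart chamber the muscle resembled. The ventricular regulatory light chain Myl2 was nearly absent: it had 4 UMIs (NV male), 5 (NV female) and 8 (V female), beside 33754, 26957 and 66920 of Myl7. Myl7 therefore made up 99.988% (exact 95% binomial interval 99.970 to 99.997) of the regulatory light chain UMIs in the NV male, 99.981% (99.957 to 99.994) of those in the NV female and 99.988% (99.976 to 99.995) of those in the V female. These intervals and all others here cover counting error only. In the V male, Myl2 had 6 UMIs beside the 24 of Myl7.

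The ventricular essential light chain Myl3 was present but low. Its UMIs numbered 358, 262 and 662 in the order NV male, NV female and V female, so that Myl4 made up 98.6%, 98.6% and 98.7% of the essential light chain UMIs. Myl3 had 0 UMIs in the V male, beside 111 of Myl4, which allows a Myl3 level of up to 0.253 CPM there (a floor of 3 UMIs). In muscle-rich spots the Myl4 share was 98.6%, 98.6% and 98.8%, close to that of the whole sections.

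The heavy chain pair behaved unlike the light chains. Myh6 made up 99.5% of the Myh6 and Myh7 UMIs (NV male), 99.7% (NV female) and 99.2% (V female), but 4.04% (1.11 to 10.0) in the V male, where Myh7 had 95 UMIs and Myh6 had 4. Myh7, the beta heavy chain, stood at 12.1, 8.77, 8.0 and 12.7 CPM in the NV male, NV female, V male and V female. Its level was thus of the same size with and without muscle in the section. Myh7 had 12.5 CPM (NV male), 12.9 (NV female) and 13.1 (V female) in muscle-rich spots, and 10.6, 7.13 and 16.4 in the parenchyma of the same sections. The parenchyma was thus below the muscle in both NV mice and above it in the V female. In each of these sections, however, the exact 95% Poisson intervals of parenchyma and muscle overlapped. In the V female they were 14.5 to 18.5 and 10.9 to 15.6. The parenchyma values of the NV male and NV female rest on 24 and 20 UMIs of Myh7.

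The slow skeletal troponin Tnni1 had 1, 0, 0 and 7 UMIs in the NV male, NV female, V male and V female, and the skeletal alpha-actin Acta1 had 16, 3, 3 and 8. Sln made up 83.2% (82.7 to 83.7) of the Sln and Pln UMIs in the NV male, 84.7% (84.1 to 85.2) of those in the NV female and 82.1% (81.8 to 82.5) of those in the V female. These 3 intervals did not overlap, but the V female lay nearer to the NV male than the NV mice lay to each other.

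Markers outside the list were read beside these pairs. Mybphl, a myosin-binding protein of atrial muscle, had 193, 214, 0.168 and 119 CPM in the NV male, NV female, V male and V female. Kcnj3, a potassium channel subunit of atrial muscle, had 68.2, 72.4 and 41.9, and no UMI in the V male. Of the other atrial markers fixed for the check (Dkk3, Bmp10, Kcna5 and Gja5), Dkk3 had 50.7 CPM in the V male. Bmp10, a growth factor of the right atrium, had 0 to 3 UMIs per section. All 6 atrial markers together had 471 CPM (NV male), 517 (NV female), 66.2 (V male) and 306 (V female). Of these 6, only Kcnj3 was at 0 in the V male. Irx4, which marks ventricular muscle, had 0 UMIs in all 4 sections. The other ventricular markers fixed for the check (Myl2, Myl3, Myh7 and Hey2) were all detected in each section, except Myl3 in the V male. The 5 ventricular markers together had 54.8 CPM (NV male), 50.7 (NV female), 10.8 (V male) and 35.1 (V female). Of 8 skeletal muscle markers, 3 to 4 were at 0 in the muscle-rich spots of the NV mice and 2 in those of the V female, with a summed level of 7.71 to 11.5 CPM.

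**Figure D2:**
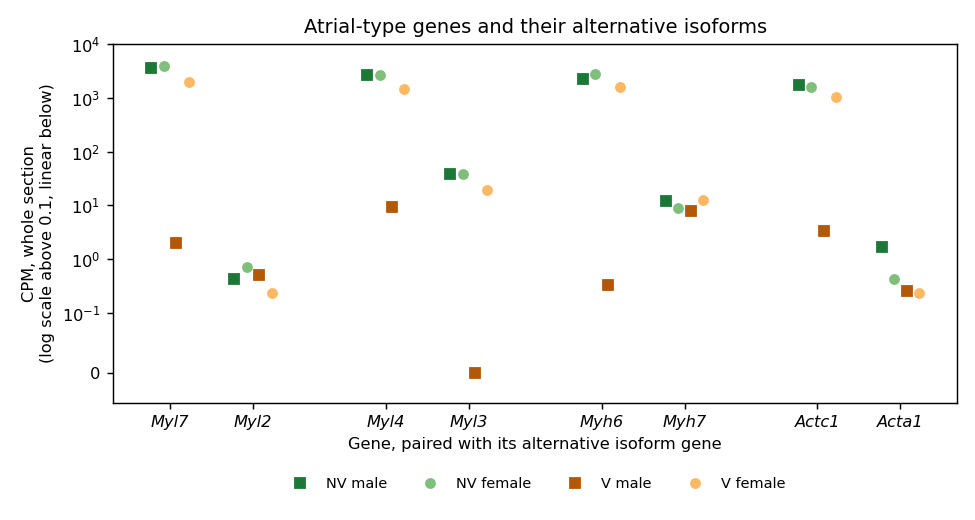
CPM of the whole section for 4 of the genes and the isoform gene each is paired with, 1 point per mouse (squares males, circles females, NV green, V orange, vertical axis logarithmic above 0.1 and linear below). Myl2 and Acta1 lie under 2 CPM in every section, Myl3 at 0 to 38.1, and Myh7 at 8.77 to 12.7 in the sections with muscle and 8.0 in the V male.

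The third question was how far the 10 genes followed the muscle panel from spot to spot, which the panel, sharing none of them, could test. In bins of the panel (chosen after the values were seen), the summed level of the 10 genes was 49291 CPM in the NV male (147 spots), 55569 in the NV female (45 spots) and 40636 in the V female (130 spots) where the panel reached 80 per 10000. At 40 to 80 it was 17078, 22871 and 17717. Below 20 the level changed less with the panel, with 6386, 5353 and 3829 at 10 to 20, and 6592, 3819 and 3138 at 5 to 10. In no bin did the sections with muscle come near the V male. Under 5 per 10000 the level was 6638 (7 spots), 4049 (20 spots) and 3234 (99 spots), against 24.2 over 1564 such spots of the V male. These spots were shallow in the sections with muscle, with medians of 188, 886 and 2789 UMIs per spot, against 6259.5 in the V male. A low panel there can thus mean only that few UMIs were captured.

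The bins of 20 to 40, with 8186, 7689 and 6929 CPM, lay nearer to the low bins than to the highest one. In the NV male 493 of the 645 muscle-rich spots also reached the parenchyma level, against 109 of 184 (NV female) and 168 of 415 (V female). The muscle-rich spots thus hold different mixtures in the 3 mice, and values at a panel of 40 per 10000 or more (191, 54 and 207 spots) are given beside those at 20. The 6 alveolar and capillary genes had 7891, 4388 and 7277 CPM in the highest bin and 36454, 26924 and 26591 at 10 to 20.

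**Figure D3:**
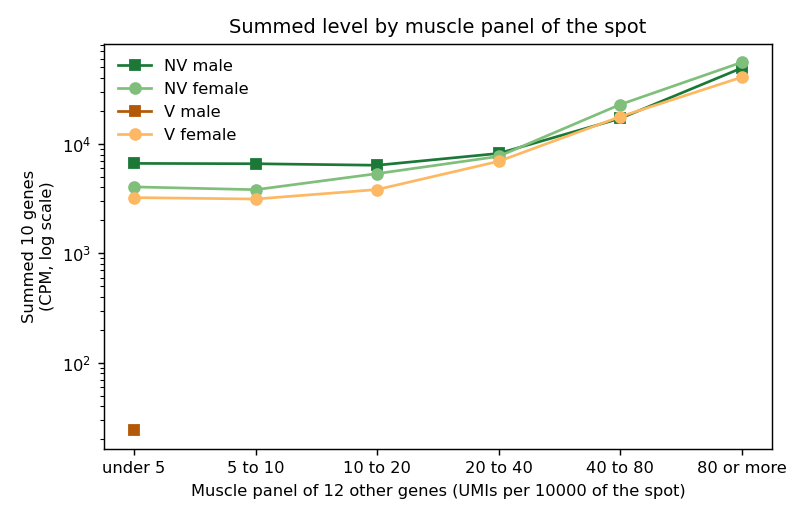
Summed CPM of the 10 genes (vertical axis, logarithmic) in spots binned by the muscle panel of 12 other genes (horizontal axis, UMIs per 10000 of the spot), 1 line per mouse, for bins of 5 or more spots. The 3 sections with muscle lie at 3138 to 6638 below a panel of 10 and at 40636 to 55569 at 80 or more. The V male has a single point at 24.2.

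The fourth question was what the parenchyma held. Parenchyma spots had 6520 CPM of the 10 genes (NV male), 5154 (NV female) and 3698 (V female), against 24.2 (V male), so the sections with muscle were 270-fold, 213-fold and 153-fold above the V male. Per gene these ratios ran from 25.2 (Ryr2, V female) to 2670 (Myh6, NV male, where the V male value rests on 4 UMIs). The other muscle genes did the same: the panel of 12 had 1643, 1354 and 1184 CPM in the parenchyma of these sections, against 12.1 (V male), where Casq2 and Smpx were at 0. Parenchyma was defined partly by a low panel, so these levels are those left after the spots with the most muscle were taken out. How the transcripts came to lie there was not tested.

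In the parenchyma Myl7 had 1291 CPM (NV male), 1042 (NV female), 2.02 (V male) and 720 (V female). With each spot thinned to 3000 UMIs, at least 1 UMI of Myl7 was found in 99.4% of parenchyma spots in the NV male (172 of 173), 94.8% in the NV female (200 of 211) and 87.9% in the V female (1130 of 1286), but in 0.807% in the V male (11 of 1363). Unthinned, the shares were 96.9%, 94.1%, 95.7% and 1.53%. In muscle-rich spots the thinned shares were 98.7%, 100% and 96.4%, which for the NV male was no higher than in its parenchyma. The thinning left out 18, 28, 201 and 166 parenchyma spots in the NV male, NV female, V male and V female.

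As a share of the level in muscle-rich spots of the same section, the 10 genes together stood in the parenchyma at 32.9% for the NV male, 16.1% for the NV female and 15.3% for the V female. Against spots at a panel of 40 or more the shares were 14.2%, 9.71% and 10.6%. Single genes kept close to these values, with a range in the NV male of 11.1% (Tnni3) to 17.2% (Sln), in the NV female of 7.94% (Tnni3) to 11.5% (Sln) and in the V female of 8.41% (Nppa) to 13.2% (Actc1). Tnni3 was lowest and Sln highest in both NV mice, but not in the V female.

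The make-up of the 10 genes in the parenchyma was close to that in the muscle. For the NV male, Myl7 took 22.2% of their UMIs in muscle-rich spots and 19.8% in the parenchyma, and the values were 23.0% and 20.2% for the NV female and 21.4% and 19.5% for the V female. From muscle-rich spots at a panel of 20 to parenchyma, the widest fall in any section was -2.74 points, for Myl7 in the NV female. The widest rise was 2.30 points, for Actc1 in the V female. At a panel of 40 or more, Myl7 lay farther from the parenchyma, at 23.0% (NV male), 23.3% (NV female) and 21.6% (V female). Actc1 in the V female did too, at 10.5% against 12.9% in the parenchyma, while other genes moved either way. The V male had another make-up: Myl4 took 38.7%, Nppa 24.4%, Actc1 13.9%, Myl7 8.36%, Ryr2 6.27% and Myh6 1.39%.

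These 287 UMIs of the V male were scattered. They lay in 253 of its 1565 spots, with at most 3 in 1 spot. Myl4 was found in 104 spots, Nppa in 67, Actc1 in 36, Myl7 in 24 and Ryr2 in 18, and Tnni3, Sln, Tnnt2, Myh6 and Pln in 2 to 7 each. Only Myl4, Actc1 and Nppa had more than 1 UMI in any spot.

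**Figure D4:**
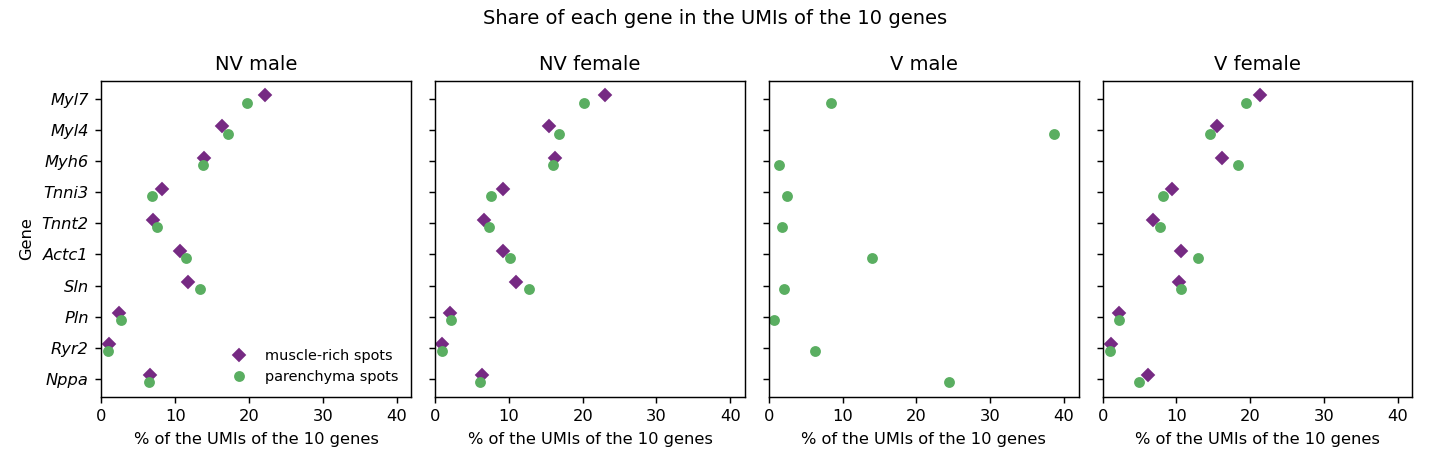
Share of each gene in the UMIs of the 10 genes (horizontal axis, percent), in muscle-rich spots (purple diamonds) and parenchyma spots (green circles) of each mouse. The 2 symbols of a gene lie at most 2.74 points apart in the 3 sections with muscle, whereas in the V male Myl4 takes 38.7% and Nppa 24.4%.

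Actc1 was also looked at in smooth muscle, where Acta2, Myh11, Tagln, Cnn1 and Actg2 are high. Only 2 spots without muscle-rich status reached 50 UMIs per 10000 of these 5 genes, 1 each in the NV male and the V female. They held 65 and 62 UMIs of Actc1, or 3669 and 1630 CPM, against 750 and 479 in the parenchyma of the same sections, whereas Myl7 had 847 and 368 against 1291 and 720. At a lower limit of 10 per 10000, chosen after these counts were seen, the V male had 12 such spots with 6 UMIs of Actc1 (70.7 CPM, exact 95% Poisson interval 26.0 to 154) and 0 UMIs of the other 9 genes, beside 3.37 CPM over its parenchyma. At that limit Actc1 had 1477 CPM in 4 spots of the NV male, 709 in 6 spots of the NV female and 645 in 46 spots of the V female, against 750, 524 and 479 in their parenchyma. These spots include the single spots above 50 already described. In the NV male, that single spot held 65 of the 103 Actc1 UMIs. The NV female spots were also above the parenchyma in Myl7 (1261 against 1042 CPM) and Tnnt2 (539 against 380). With 1 to 46 spots a section, these values are descriptions of few spots.

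Within muscle-rich spots the genes varied together. Over the 45 pairs, Pearson correlations of log2(UMIs per 10000 + 1) had a median of 0.53 over 645 spots in the NV male, 0.74 over 184 spots in the NV female and 0.76 over 415 spots in the V female. The spots of a section share a library and differ in depth and in how much muscle lies above them, so these values are descriptions. The highest pairs were Myl7 with Myh6 (0.81) in the NV male, Myl7 with Sln (0.89) in the NV female and Tnni3 with Sln (0.85) in the V female.

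Nppa was in the lowest pair of every section: with Tnnt2 in the NV male (0.32), with Pln in the NV female (0.33) and with Ryr2 in the V female (0.52). In spots at a panel of 40 or more, the lowest pairs again held Nppa, at 0.17 with Tnnt2 (NV male), -0.22 with Pln in the NV female and 0.23 with Pln in the V female. In these spots of the NV female, Pln followed the other genes except Myl4 less than Nppa did. Its correlations were 0.14 with Myl7 and -0.15 with Myh6, against 0.50 and 0.34 for Nppa. With Myl4 they were 0.68 for Pln and 0.36 for Nppa. In spots at a panel of 40 or more, Nppa also had the widest spread in each section. Its 10th and 90th percentiles were 0.94 and 57.0 UMIs per 10000 (NV male), 1.81 and 73.5 (NV female) and 2.16 and 44.7 (V female), with an SD of 1.75, 1.99 and 1.55 on the log2 scale. Myl7 ran from 24.9 to 137, 52.9 to 161 and 24.6 to 112 between the same percentiles, with an SD of 1.21, 1.42 and 0.99. At a panel of 40 or more, the SD of Nppa was thus above that of Myl7 in each of the 3 sections. Over all muscle-rich spots it was above that of Myl7 in the NV male only, and below it in the NV female and the V female. Nor was Nppa the gene with the widest spread there: that was Tnni3 in the NV male and Myl7 in the NV female and the V female. The wide spread of Nppa therefore depended on the panel limit.

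The genes outside the list whose level was most like its sum over all spots were, of 5835 genes ranked by their lowest correlation in the 3 sections, Mb (0.67), Ttn (0.66), Tpm1 (0.64), Atp2a2 (0.63), Cox6a2 (0.60), Slc25a4 (0.59), Csrp3 (0.59), Fabp3 (0.55), mt-Co3 (0.55) and Hspb7 (0.55). Mb, Ttn and Csrp3 are also in the muscle panel. Mb encodes myoglobin, Ttn the giant spring of the sarcomere and Tpm1 a tropomyosin. Atp2a2 is the calcium pump that Sln and Pln inhibit. Cox6a2 and mt-Co3 are subunits of cytochrome oxidase, Slc25a4 exchanges ATP and ADP across the mitochondrial membrane, and Fabp3 carries fatty acids. The genes of the list themselves had lowest correlations with the sum of 0.52 (Nppa) to 0.80 (Myl7), though each is part of that sum.

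The last question was whether V and NV mice differed. UMIs were summed per mouse and compared by edgeR's quasi-likelihood test, and a gene was called if its log2 fold change was beyond 0.25 in either direction with an adjusted p (Benjamini-Hochberg) below 0.05. Log2 fold changes are V minus NV. For 1 gene, an exact permutation test of 2 against 2 mice cannot give a two-sided p below 0.33.

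Over whole sections, 0 of the 10 genes were called, and 0 of all 14570 genes tested (0%), of which 248 had an unadjusted p under 0.05 and 8 were called by DESeq2, none of them among the 10. All 10 log2 fold changes were negative, from -1.91 (Sln, SE 2.54) to -1.53 (Ryr2, SE 1.73), each with an adjusted p of 0.9997. The standard errors were as large as or larger than the changes, and the V mice lay far apart. Myl7 had a mean of 976 ± 1378 (SD, n = 2) CPM in V mice and 3735 ± 197 (SD, n = 2) in NV mice. Both V mice lay below both NV mice for 10 of the 10 genes, and for 14.4% of all genes tested.

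These values rest on the V male. Without it, the V female against the NV mice gave a median log2 fold change of -0.73 over the 10 genes, from -0.92 to -0.56, with 7 of the 10 at an unadjusted p under 0.05 and 0 called. Of all 15083 genes in that fit, 2.23% were lower at an unadjusted p under 0.05. Without the V female, the V male against the NV mice gave a median of -11.06. All 10 genes were called lower, as were 678 of all 14831 genes tested (4.57%), among 811 called in either direction. Each of these fits sets 1 V mouse against 2 NV mice, so the spread comes from the NV mice alone and the V mouse is taken to vary like them.

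In the parenchyma the picture was similar. Of 13839 genes tested 0 were called (0%), with 471 at an unadjusted p under 0.05 and 11 called by DESeq2, and 0 of the 10 genes by either tool. Sln had the most negative log2 fold change, -1.92 (SE 1.96, edgeR adjusted p = 0.991), and Myh6 the least, -1.30 (SE 2.07, adjusted p = 0.995). Both V mice lay below both NV mice for all 10, and for 19.2% of all genes tested. With the V female as the only V mouse the median was -0.60 with 8 of the 10 at an unadjusted p under 0.05, beside 3.39% of all 12837 genes lower at that p. Of the 10 genes 0 were called, among 102 called in all, the nearest being Nppa at -0.95 (SE 0.21, adjusted p = 0.0533) and Sln at -0.92 (SE 0.21, adjusted p = 0.0583). With the V male as the only V mouse all 10 were called lower, with a median of -9.29, as were 503 of all 12796 genes tested (3.93%), among 700 called in either direction. The spread in these fits again comes from the 2 NV mice alone.

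In muscle-rich spots only the V female could be set against the 2 NV mice, and its spread was taken to be like theirs. Myl7 had 4395 CPM (NV male), 7368 (NV female) and 5183 (V female), and in the same order Myh6 had 2742, 5195 and 3923, Sln 2321, 3510 and 2511, and Nppa 1293, 2050 and 1492. The V female lay between the NV mice for all 10 genes. The log2 fold changes ran from -0.12 (Sln, SE 0.68) to 0.25 (Ryr2, SE 0.42), each with an edgeR adjusted p of 0.9997. Of 14599 genes tested 67 were called (0.459%), all higher in the V female, and 0 of them belonged to the 10.

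At a panel of 40 or more, the 10 genes had 46051, 53080 and 34778 CPM in the order NV male, NV female and V female, so the V female now lay below both. All 10 log2 fold changes were negative, from -0.70 (Myl7, SE 0.38, edgeR adjusted p = 0.794) to -0.45 (Ryr2, SE 0.32, adjusted p = 0.9998), and 0 of the 10 were called, among 183 of 12067 genes (1.52%). At a panel of 10 all 10 were negative too, from -0.75 to -0.38. The direction in muscle-rich spots therefore depended on where the muscle began.

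The muscle-rich spots also differed in their other tissue. Summed over 5 smooth muscle markers, none at 0, they had 313 CPM (NV male), 332 (NV female) and 601 (V female), and brown fat markers (5 of 6 detected in the NV male, 6 of 6 in the others) had 540, 1106 and 2455. Ucp1, the heat-producing protein of brown fat, had 1 and 2 UMIs in the NV mice and 5163 (V female). Their median depth was 9556, 10882 and 22652 UMIs per spot. The part of fat, smooth muscle and depth in the comparison was not tested.

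**Figure D5:**
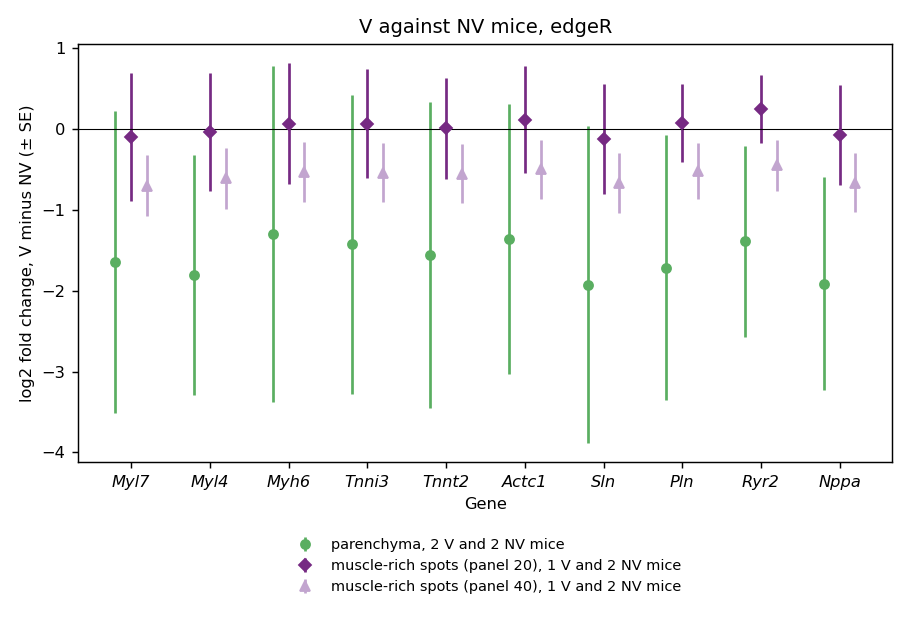
Log2 fold change of V against NV mice (vertical axis) for each of the 10 genes. Bars are ± SE, derived from the F statistic of edgeR. Green circles are parenchyma spots (2 V and 2 NV mice). Purple diamonds are muscle-rich spots at a panel of 20 and light triangles those at 40 UMIs per 10000 (1 V and 2 NV mice). Parenchyma values lie between -1.92 and -1.30 with the longest bars, and the muscle values move from -0.12 to 0.25 at 20 down to -0.70 to -0.45 at 40.

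Other genes of the same systems were read from 3 lists. Of 30 further sarcomere genes, some of them also in the muscle panel, 27 were tested over whole sections and in the parenchyma and 28 in muscle-rich spots, and 0 were called in either direction. Their median log2 fold changes were -1.54, -1.11 and 0.07. Of 26 further calcium-handling genes 25, 22 and 25 were tested and 0 called, with medians of -0.24, -0.19 and 0.14. The muscle panel that defined the regions holds Actn2, Ttn, Mybpc3, Tnnc1, Csrp3, Myoz2, Tcap, Ldb3 and Smpx of the sarcomere list. It also holds Casq2 and Hrc of the calcium-handling list. For these genes the values in parenchyma and muscle-rich spots are constrained by the rule that chose the spots. Of 21 cardiac transcription factor and natriuretic genes 20, 19 and 20 were tested and 0 called, with medians of -0.32, -0.16 and -0.08. Over all genes tested the medians were 0.03, 0.01 and 0.00, and at an unadjusted p under 0.05 the lists held 0, 1 and 4 genes in all.

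Over whole sections the log2 fold change was negative for 26 of 27 sarcomere genes, 18 of 25 calcium-handling genes and 15 of 20 genes of the third list. Over all genes tested the median was 0.03. These counts include the V male, and the lists were not read without it. Single genes of the lists were less low than the 10 in the V male. Atp2a2, the pump itself, had 2120 CPM (NV male), 2112 (NV female) and 1355 (V female), and still 161 (V male), where Sln had 0.505 and Pln 0.168. Tpm1 likewise had 1895, 1623 and 1117, and 265 (V male). Nkx2-5, a transcription factor of heart muscle cells, had 15.1, 10.2 and 6.0 and no UMI in the V male, and Nppb, the sister hormone of Nppa, had 53, 8, 2 and 42 UMIs in the NV male, NV female, V male and V female.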

How the data were processed

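The counts are UMI counts of each gene in each spot under tissue, which the authors made with SpaceRanger (version 1.2.2 in the submitters' notes, mouse reference mm10) and deposited without normalization; their later steps in Seurat 4.0.3 are not part of the values. All 4933 spots were used, with no column left out. The genes, lists and thresholds were chosen with earlier results of these data known.

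UMIs were summed per mouse and region and divided by the total to give CPM. The main test was the quasi-likelihood test of edgeR 4.0.16 (R 4.3.3) on the sums per mouse, after TMM scaling and removal of low counts by filterByExpr, with DESeq2 1.42.0 as an alternative, and the fit was tested on simulated data. The SE of an edgeR change was taken as the size of the log2 fold change divided by the square root of its F statistic. The smallest number of spots for a mouse to enter a region was 50. Floors are 3 UMIs. Whether same-sex mice of the groups were littermates is not given in the sources used here, and p-values measure the spread between these sections, each from its own mouse. Genes named outside the list were the paired isoforms, the 10 most alike by correlation among genes with at least 200 UMIs per section, markers, and members of the pathway lists, of which Mybphl, Kcnj3, Dkk3, Ucp1, Atp2a2, Tpm1, Nkx2-5 and Nppb were picked after their values were seen. Alternatives comprised other scalings and filters, thinning, other panel and parenchyma limits, each mouse left out and the replicate number as a block. Gene positions come from GENCODE vM21 and start-site windows from RefSeq. Python 3.11.15 with SciPy 1.17.1 gave the exact intervals. Spot positions and images were not used here.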

Additional observations from a re-analysis of the deposited data

How the results depend on the processing

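Under the alternatives to the tests, the 10 genes kept a negative log2 fold change in all 110 values over whole sections and all 150 in the parenchyma, and they were called only without Vaped replicate 2 (the V female). In muscle-rich spots 16 of 80 values turned negative: with total UMIs in place of TMM scaling Myh6 (-0.0161), Tnni3 (-0.0166), Tnnt2 (-0.0773) and Pln (-0.0172), at a panel of 10 per 10000 Myh6 (-0.47), Tnni3 (-0.53), Tnnt2 (-0.57), Actc1 (-0.45), Pln (-0.58) and Ryr2 (-0.38), and at a panel of 40 Myh6 (-0.52), Tnni3 (-0.54), Tnnt2 (-0.55), Actc1 (-0.50), Pln (-0.52) and Ryr2 (-0.45). The cause was not tested. Total UMIs moved the median of all genes in muscle-rich spots from 0.00 to -0.11, and that of the 10 genes from 0.04 to -0.05. Genes called in all numbered 0 over whole sections, 8 with DESeq2 and 0 to 811 with a mouse left out, the highest without the V female and 21 without the V male. In the parenchyma they numbered 0, 11 with DESeq2, 46 without a filter on low counts and 0 to 700 with a mouse left out (102 without the V male). In muscle-rich spots they numbered 67, against 37 with DESeq2, 289 without a filter, 17 with sections thinned to the same total, 0 at a panel of 10 (850 at an unadjusted p under 0.05) and 183 at a panel of 40.

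Replicate numbers of the labels go with sex and nothing says that they mark a litter. Deviations of same-numbered mice correlated at 0.38 over whole sections and 0.11 in the parenchyma, from 2 pairs. With the replicate block 0 genes were called in both, and the median log2 fold change of the 10 genes was -5.26 and -4.04. No fit with the block was possible in muscle-rich spots, where 3 mice left no residual degrees of freedom. Leaving out a mouse was not run there either.

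Among descriptions, the summed level of the 10 genes in muscle-rich spots moved from 25948 ± 8691 (SD, n = 2) in NV mice to 49566 at a panel of 40, and from 24219 in the V female to 10953 at 10, 34778 at 40 and 18228 as a mean over spots. In the V female parenchyma it moved from 3698 to 3420 at a panel of 10, 3949 at 40 and 3789 at a parenchyma limit of 25%, and from 15.3% of the muscle level to 31.2%, 11.4% and 15.6%. As means over spots, whole sections gave 12514 in NV mice and 6624 in the V female. The NV mean share of Myl7 in muscle-rich spots was 99.985% at a panel of 10 and 99.993% at 40, that of Myl4 98.613% and 98.610%, and that of Myh6 99.805% at 40. Spots with Myl7 fell to 83.1% in muscle-rich and 68.8% in parenchyma spots of NV mice at 1000 UMIs, and to 96.4% and 87.9% for at least 2 UMIs. In the V male, counts of 2 to 111 UMIs per gene limit its ratios.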
